A study of Homo sapiens with 13 samples.

Results

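The metallothioneins measured here were MT1E, MT1F, MT1G, MT1H, MT1X and MT2A. Their members were taken as every probe set whose platform gene symbol was 1 of these 6 names, which gave 10 probe sets of the 22277 on the array, for 6 of the 11963 genes named there. RNA came from MCF10A, a spontaneously immortalised, non-tumour human mammary epithelial cell line of basal type, deprived of serum for 24 h. There was 1 unstimulated array, 6 arrays after EGF and 6 after the growth supplement that the labels call serum, at 20, 40, 60, 120, 240 and 480 min. That supplement was horse serum with insulin, cholera toxin and hydrocortisone, so the serum arrays differ from the EGF arrays in several agents at once, whose parts cannot be told apart. For the EGF array used as 20 min, title and description disagreed (20 against 40 min), and the title was followed. No array had a replicate: the EGF and serum arrays of a time were used as a pair, the 3 early times (20 to 60 min) and the 3 late times (120 to 480 min) were used as samples of a phase, and p-values measure the spread between these arrays, whose number limits the precision.

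Metallothioneins are small, cysteine-rich proteins that bind zinc, copper and cadmium and buffer the free zinc of the cell. The genes of the 6 members lie in 1 cluster on human chromosome 16. MT2A and MT1X are the outermost of the 6, with MT1E, MT1F, MT1G and MT1H between them in that order. Their transcription is known to be induced by zinc and cadmium through the zinc-sensing factor MTF1, which binds short promoter motifs called metal response elements, and by glucocorticoids such as hydrocortisone. The transcripts are so alike that array probes for one gene can bind the RNA of another. On this array 9 of the 10 member probe sets carried the suffix _x_at, the manufacturer's mark for probes that may cross-hybridise, so a value below belongs to a probe set and cannot be assigned to one gene with certainty.

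The regions before the start sites of 3 of the 6 members, MT1H, MT1X and MT2A, were in the RefSeq promoter table (GRCh38.p14). They are printed because they hold the matches to the metal response element counted after them. Each is the 250 bases before the start, plus strand, 5′ to 3′, with capitals marking matches to the element core on either strand (TGCACNC or TGCGCNC, where matches of the other strand read as the reverse complement).
MT1H, chr16:56669564-56669813: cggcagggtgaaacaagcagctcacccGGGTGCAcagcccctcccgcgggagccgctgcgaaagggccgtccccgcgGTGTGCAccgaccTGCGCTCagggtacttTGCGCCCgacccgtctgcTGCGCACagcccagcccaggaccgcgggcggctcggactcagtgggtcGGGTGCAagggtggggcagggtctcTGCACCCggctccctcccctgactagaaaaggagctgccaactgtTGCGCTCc
MT1X, chr16:56682220-56682469: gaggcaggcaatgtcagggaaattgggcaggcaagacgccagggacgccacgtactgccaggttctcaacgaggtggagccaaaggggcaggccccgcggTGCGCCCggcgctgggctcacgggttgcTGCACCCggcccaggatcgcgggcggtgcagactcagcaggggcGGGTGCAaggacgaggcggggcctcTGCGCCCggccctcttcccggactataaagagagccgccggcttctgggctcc
MT2A, chr16:56608334-56608583: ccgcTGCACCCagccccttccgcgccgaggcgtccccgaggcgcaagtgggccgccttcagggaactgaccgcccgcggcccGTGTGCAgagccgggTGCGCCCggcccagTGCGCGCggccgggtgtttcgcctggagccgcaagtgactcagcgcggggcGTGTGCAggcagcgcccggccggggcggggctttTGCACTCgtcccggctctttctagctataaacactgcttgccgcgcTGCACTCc
The window held 8 matches in MT1H, 4 in MT1X and 7 in MT2A. Among 35116 promoters searched over the same 250 bases, 24.8% held at least 1 match and 0.37% held at least 4. A match to the AP-1 motif TGACTCA, the element of FOS and JUN dimers, was found in MT2A and in 4.2% of all promoters. The half-site of the glucocorticoid response element, AGAACA, was not among the letters of any of the 3 windows and was in 12.4% of promoters. Neither was the full element, that half-site and its reverse complement with 3 bases between them, which 0.00285% of promoters held. Only these exact letters within the 250 bases were searched. An element spelled otherwise or lying further away would be missed, so absence of a glucocorticoid element was not shown.

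All values below are probe set signals on the linear scale of the deposited table, or differences on the log2 scale after an offset of 6 was added to the signal and the arrays were quantile normalised. Tests used limma across 11745 probe sets, those with 1 gene symbol and a mean log2 value of at least 4.68, with p-values adjusted over all of them and called at 0.05. Of the 10 member probe sets 9 passed that filter. The arrays were alike in scale, with 36.7% to 40.0% of probe sets under a signal of 20 on 12 arrays. The serum array of 20 min stood apart with 33.3%. All 11 measured epithelial and basal markers were above the filter, with signals of 1263.2 or more on every array. Of 13 markers of other cell types 10 were below it. The exceptions were COL1A1 (22.4 to 77.7), CD14 (86.1 to 286.2) and DCN (139.6 to 405.4), and their part in the metallothionein values was not tested.

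**Figure D1:**
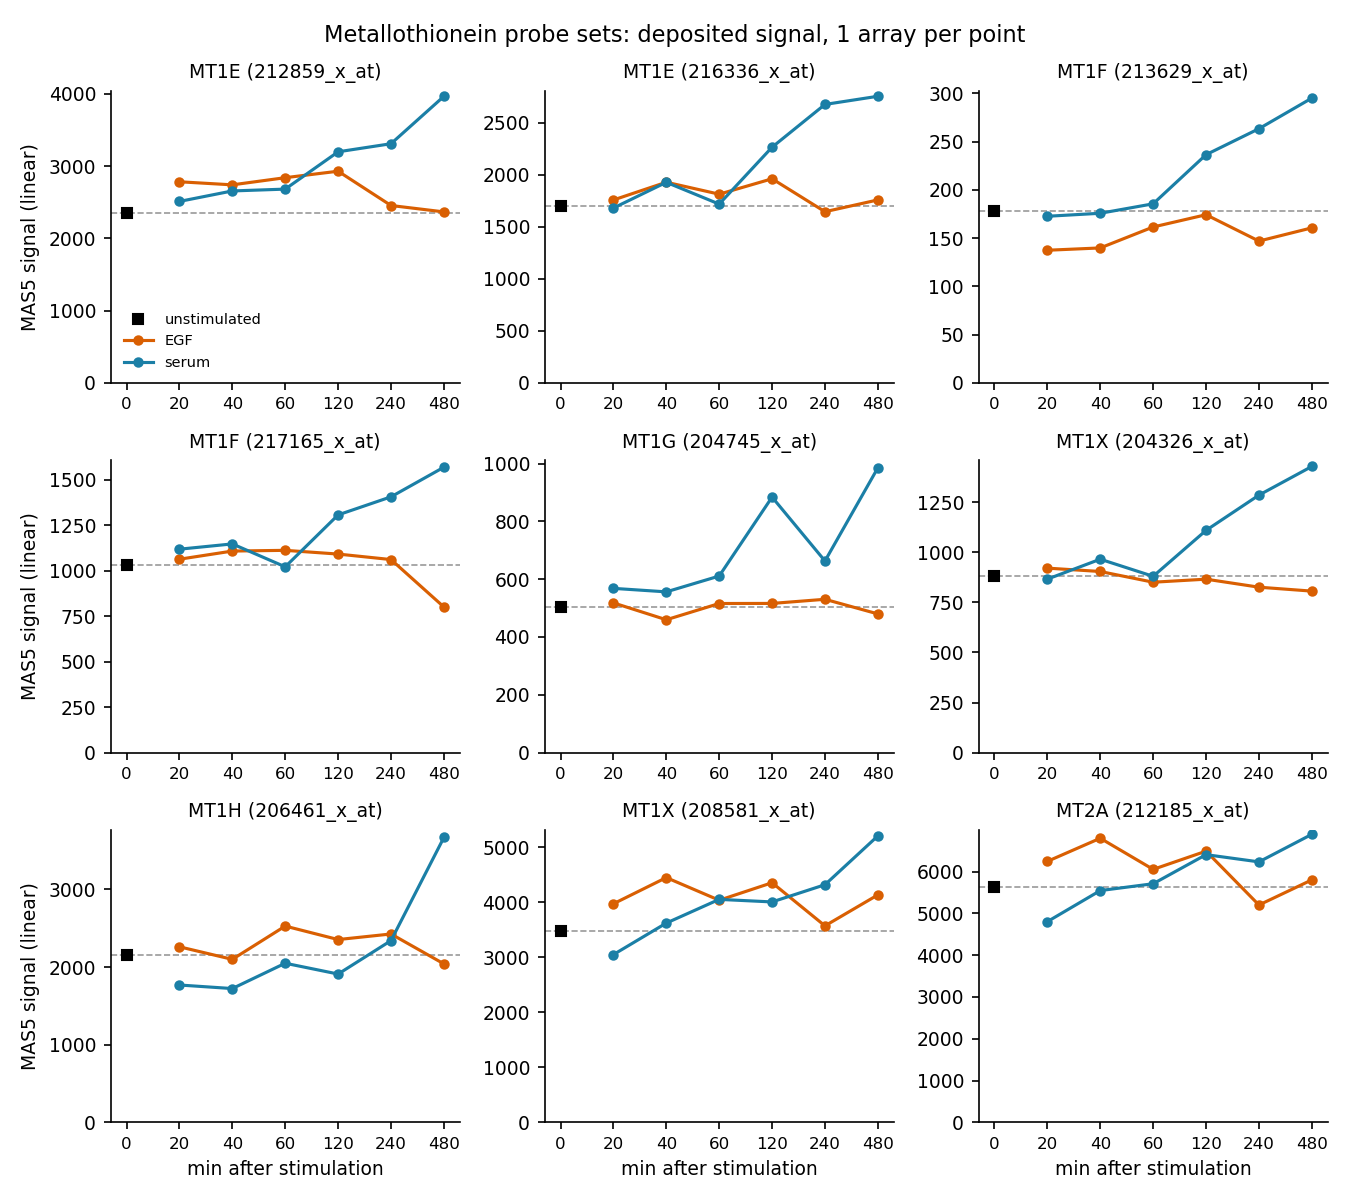
Deposited MAS5 signal of the 9 tested metallothionein probe sets against min after stimulation (times evenly spaced, vertical axes from 0), 1 array per point. The square and dashed line are the unstimulated array, orange is EGF and blue is serum. In the upper 6 panels the serum arrays of 120 to 480 min lie above every other array, while in the lower 3 panels the late serum arrays overlap the other arrays.

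On the deposited scale the serum array of 480 min gave the highest of the 13 values in all 9 tested probe sets. The EGF arrays lay between 0.753-fold and 1.12-fold of the unstimulated array in all 9 on the quantile-normalised log2 scale. In 6 of the 9 tested probe sets, both of MT1E, both of MT1F, 1 of MT1G and 1 of MT1X, each late serum array lay above all 10 other arrays. Such a separation was seen in 2.68% of all tested probe sets. The same 6 were the probe sets with late serum above late EGF without overlap (10.2% of all tested). Late serum lay above early serum without overlap in 7 of the 9, MT2A being the added one (12.7% of all tested), and late EGF above early EGF in 0 of the 9 (10.3% of all tested). On the log2 scale the 6 stood 1.22-fold to 1.72-fold above the unstimulated array at 120 min of serum, 1.25-fold to 1.53-fold above it at 240 min and 1.45-fold to 1.89-fold above it at 480 min. The same 6 were at 0.753-fold to 1.03-fold of it after 480 min of EGF. The division into these 6 and the other 3 was made after the values were seen and is a description.

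MT1F, one of the MT1 isoforms, was the member whose difference between late and early serum passed the test. Its probe set 213629_x_at read 178.5 unstimulated. After EGF it read 137.4, 139.8, 161.5, 174.2, 146.9 and 160.6 from 20 to 480 min, all below the unstimulated array. After serum it read 172.6, 175.7 and 185.5 early and 236.4, 263.3 and 295 late, so the late serum arrays overlapped no other group. Late minus early in serum was 0.56 (SE 0.11, n = 3 against 3 arrays, 1.47-fold, limma adjusted p = 0.0498), just inside the threshold. The call held in 6 of 21 alternative settings, with adjusted p from 0.0195 to 0.146, and was lost when any 1 of 11 arrays was left out; the difference itself ran from 0.48 to 0.63. The other MT1F probe set, 217165_x_at, read 1031.2 unstimulated, 1021.2 to 1147.1 early in serum and 1306.6, 1405.9 and 1568.7 late. After EGF it stayed between 1061.1 and 1111.8 up to 240 min and was at 800.5 at 480 min, the lowest of the 13 arrays. Its late-minus-early difference in serum was 0.35 (SE 0.13, limma adjusted p = 0.185).

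MT1E, the MT1 gene nearest to MT2A among the members, had 2 probe sets. Probe set 216336_x_at read 1701.2 unstimulated and 1645.4 to 1962 across the 6 EGF arrays. After serum it read 1680.8, 1927.9 and 1718.7 early and 2265.6, 2676.7 and 2755.1 late, a difference of 0.48 (SE 0.11, 1.39-fold, limma adjusted p = 0.0619). Probe set 212859_x_at read 2354.8 unstimulated, 2512.1 to 2682.6 early in serum and 3199.1, 3311 and 3967.2 late, a difference of 0.35 (SE 0.11, limma adjusted p = 0.118). In EGF it ran from 2367.2 to 2930.4, above the unstimulated array at every time on the deposited scale. Neither MT1E probe set passed the threshold.

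MT1G and MT1X each had 1 probe set among the 6. MT1G 204745_x_at read 504.4 unstimulated and 459.6 to 530.4 across the EGF arrays. After serum it read 568.2, 556.1 and 610.8 early and 883.9, 662.9 and 985.2 late, so its 240 min array lay below the arrays on either side of it. Late minus early in serum was 0.51 (SE 0.14, 1.42-fold, limma adjusted p = 0.0938). MT1X 204326_x_at read 881.1 unstimulated, and its 6 EGF arrays ran from 805.8 to 920.5. After serum it read 865.7, 965 and 879.7 early and 1108.9, 1284.8 and 1427.8 late, a difference of 0.46 (SE 0.11, 1.37-fold, limma adjusted p = 0.0649). The accession that the platform lists for this probe set is that of MT1L in RefSeq, a transcribed pseudogene of the same cluster, though its symbol there is MT1X.

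MT2A, usually the most widely expressed of the family, MT1H and the second MT1X probe set overlapped the other arrays late in serum. MT2A 212185_x_at read 5635.7 unstimulated, 6246.5, 6799.8, 6054.6, 6490.7, 5202 and 5803.3 after EGF and 4804.2, 5547.2, 5710.8, 6407.2, 6234 and 6893.9 after serum. The late serum arrays were above the early serum arrays, but they overlapped the EGF arrays. Its rank, on which quantile normalisation acts, was within the top 0.32% of all probe sets on every array. Late minus early in serum was 0.08 (SE 0.08, limma adjusted p = 0.643), and 0.28 (SE 0.12, limma adjusted p = 0.22) on the log2 scale without quantile normalisation. The size for MT2A thus depended on the scaling by more than 1.5 times, and neither value passed the threshold.

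MT1X 208581_x_at, whose accession is that of MT1X itself, read 3475.6 unstimulated and 3569.5 to 4446 after EGF. After serum it read 3047.1, 3619.7 and 4050.3 early and 4003.9, 4316.5 and 5203.8 late, so the phases overlapped. The difference was 0.24 (SE 0.11, limma adjusted p = 0.264), with a 95% interval from -0.0044 to 0.48. MT1H 206461_x_at read 2161.3 unstimulated, 2041.4 to 2528.2 after EGF, and 1769.1, 1723.4, 2049.6, 1910.4, 2341.1 and 3669.5 after serum. Its 3 early serum arrays were below the 3 early EGF arrays, an order seen in 11.2% of all tested probe sets, and a single array, 480 min of serum, stood far above the rest. Late minus early in serum was 0.41 (SE 0.20, limma adjusted p = 0.3) and 0.15 without the 480 min serum array. Its late EGF minus serum was -0.09 (95% interval -0.58 to 0.40) and 0.25 without that array.

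**Figure D2:**
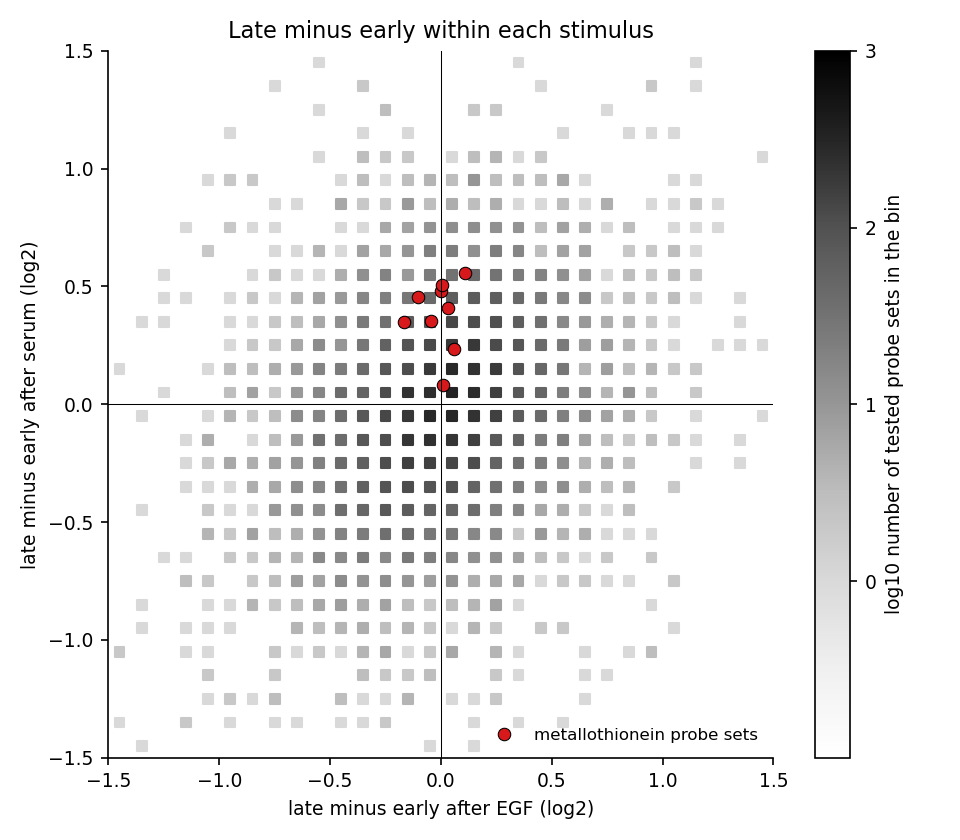
Late minus early (mean of 3 arrays minus mean of 3 arrays, log2) after EGF on the horizontal axis and after serum on the vertical axis. Grey squares are bins of 0.1 of all 11745 tested probe sets (45 lie outside the axes), red points the 9 metallothionein probe sets. The red points run from 0.08 to 0.56 upward and from -0.16 to 0.11 sideways.

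Over the members, late minus early in serum was above 0 for 9 of 9 tested probe sets, with a median of 0.41 beside 0.00 over all tested probe sets. Of the 9, 1 was called higher and 0 lower, and 6 had an unadjusted p under 0.05, a mark that 19.6% of all tested probe sets reached. Among all tested probe sets 0.528% were called higher and 0.502% lower, 1.03% in all. With a variance trend and robust variances 5 of 9 were called, where 4.78% of all tested probe sets were called in either direction. After EGF the same difference was above 0 for 5 of 9 and below 0 for 4 of 9, with a median of 0.00. Limma called 0 of 9 there, beside 0.0937% of all tested, with 0 at an unadjusted p under 0.05, beside 13.9%. The 95% intervals of the 9 EGF differences ran no lower than -0.46 and no higher than 0.48.

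Against the lone unstimulated array the late serum arrays had a median of 0.40 over the 9 probe sets. Limma called 0 of 9, beside 0.179% of all tested, with 5 at an unadjusted p under 0.05, beside 13.8%. With the variance trend it called 0 of 9, beside 1.4%. The largest was MT1G 204745_x_at at 0.69 (SE 0.20, 1.61-fold, adjusted p = 0.154). Late EGF arrays had a median of -0.02, and early arrays -0.02 after EGF and 0.01 after serum. In those 3 comparisons limma called 0 of 9, with 0 at an unadjusted p under 0.05. Of all tested probe sets it called 0% for late EGF, 0% for early EGF and 0.119% for early serum, with 11.4%, 6.86% and 10.7% at an unadjusted p under 0.05. No member was therefore shown to differ from the unstimulated level in the first hour.

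**Figure D3:**
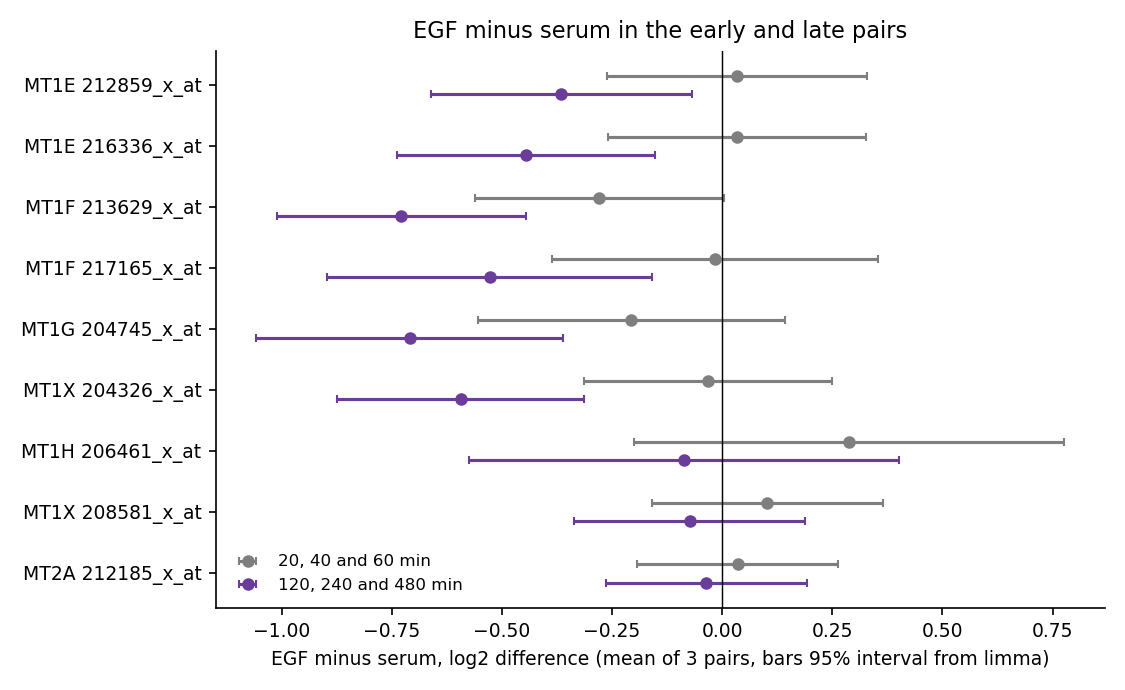
EGF minus serum (log2) for each of the 9 metallothionein probe sets, as the mean of 3 pairs of the same time, in grey for 20, 40 and 60 min and in purple for 120, 240 and 480 min. Bars are 95% intervals from limma, not adjusted for the number of probe sets. The late intervals of the upper 6 probe sets lie below 0, and those of MT1X 208581_x_at, MT1H and MT2A include it.

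With EGF paired with serum at each time, EGF was below serum in more of the probe sets at the late times, as a description. At 20, 40 and 60 min EGF was below serum in 4, 4 and 4 of the 9 probe sets. At 120 min it was below in 6, at 240 min in 8 and at 480 min in 9. At 240 min MT1X 208581_x_at (-0.07) and MT2A (-0.01) were only just below, and MT1H was above (0.17). Shares of all tested probe sets were not computed for single times, and cross-hybridising probe sets are not independent counts. At 480 min serum stood 1.07-fold to 2.05-fold above EGF, and 6 of the 9 were at least 1.5-fold higher in serum, a size reached by 8.61% of all tested probe sets on those 2 arrays. They were not the 6 set apart by late serum: MT1H (1.68-fold) was among them and MT1E 216336_x_at (1.46-fold) was not. MT1G alone reached 2-fold, a size seen in 2.32% of all tested. These are values of 1 array each. The largest gap at that time was that of MT1G (2.05-fold), followed by MT1F 217165_x_at (1.92-fold) and MT1F 213629_x_at (1.83-fold).

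In 6 of the 9, EGF was lower than serum in all 3 late pairs, as in 19% of all tested probe sets. The mean EGF minus serum of the late pairs was below 0 for 9 of 9 tested probe sets, with a median of -0.45 beside 0.01 over all tested. It was -0.73 for MT1F 213629_x_at (SE 0.12, n = 3 pairs, 1.66-fold, limma adjusted p = 0.0605) and -0.71 for MT1G (SE 0.15, 1.63-fold, adjusted p = 0.0965). MT1X 204326_x_at was at -0.59 (SE 0.12, 1.51-fold, adjusted p = 0.0915). Limma called 0 of 9 beside 0.681% of all tested, with 6 of 9 at an unadjusted p under 0.05, beside 18.4%. With a variance trend and robust variances it called 6 of 9, the 6 probe sets set apart by late serum, beside 6.54% of all tested. For MT2A the late difference was -0.04 (95% interval -0.26 to 0.19), and -0.16 (SE 0.12) without quantile normalisation.

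Over all 6 pairs the median was -0.21, and limma called 0 of 9 beside 0.0596% of all tested. An unadjusted p under 0.05 was reached by 3 of 9, beside 20.3% of all tested, and the variance trend called 2 of 9, beside 5.9%. MT1F 213629_x_at (-0.50, SE 0.12, adjusted p = 0.0848) and MT1G (-0.46, SE 0.13, adjusted p = 0.131) were lower in EGF in 6 of 6 pairs, an order seen in 6.63% of tested probe sets. These 2 also had all early serum arrays above all early EGF arrays, as 11.3% of all tested did. MT1E 212859_x_at, MT1H and MT2A were higher in EGF in all 3 early pairs, as 20.5% of all tested were. In the 3 early pairs the median was 0.03 and limma called 0 of 9, beside 0% of all tested, with 0 at an unadjusted p under 0.05, beside 14.6%. The change of the gap between phases was tested as an interaction. It was below 0 for 9 of 9, with a median of -0.45, and limma called 0 of 9 beside 0.00851% of all tested. An unadjusted p under 0.05 was reached by 4 of 9, beside 10.4% of all tested, and the variance trend called 0 of 9, beside 0.766%. The largest was that of MT1X 204326_x_at (-0.56, SE 0.17, adjusted p = 0.372). That of MT2A was -0.07, and -0.42 (SE 0.17, adjusted p = 0.463) without quantile normalisation. A different response to the 2 stimuli was therefore not shown for any member by this test.

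**Figure D4:**
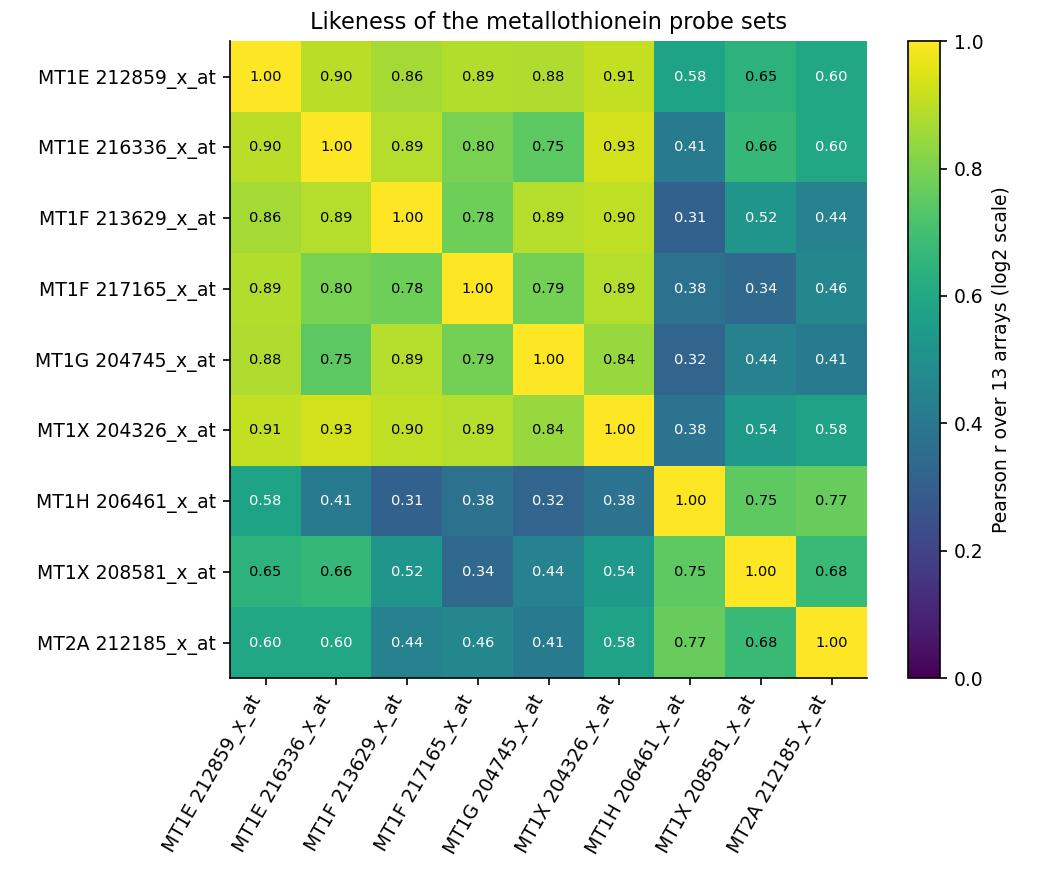
Pearson r between the log2 values of each pair of the 9 metallothionein probe sets over the 13 arrays, from 0 (dark) to 1 (yellow). The 6 probe sets whose late serum arrays stood apart form a block with r of 0.75 to 0.93. The other 3 form a block with r of 0.68 to 0.77. The 6 were chosen on these same arrays, so the blocks follow in part from that choice.

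The probe sets of a gene did not always resemble each other most. Over the 13 arrays r ran from 0.31 to 0.93 over the 36 pairs of the 9 probe sets, as a description of arrays that share scaling and RNA. The highest was between MT1X 204326_x_at and MT1E 216336_x_at (0.93), while the 2 MT1X probe sets had r = 0.54. The 2 MT1E probe sets had r = 0.90 and the 2 MT1F probe sets 0.78. Between the 6 probe sets set apart by late serum and the other 3, r was 0.31 to 0.66. The 6 were picked on these same arrays for a shared order, so this division of r follows in part from that choice. With these cross-hybridising probes a difference shared by several transcripts and a difference of 1 transcript seen by several probe sets cannot be told apart.

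The tenth member probe set, MT1G 210472_at, was the only one without the _x_at mark. It read 0.9 to 15.3, below the filter, and was highest in serum at 120 min (15.3) and 240 min (11.3) against 0.9 at 480 min of serum. Signals this low have no reliable order, so this probe set neither shares nor lacks the pattern of MT1G 204745_x_at. Of the other metallothionein symbols on the array, MT1HL1 211456_x_at, annotated to a relative outside the cluster, was tested. It read 3231.6 unstimulated, 3127 to 3719.4 after EGF, 2449.8 to 3494.7 early in serum and 3805.2, 3777.5 and 4656.5 late. Late minus early in serum was 0.47 (SE 0.13, limma adjusted p = 0.0915) and after EGF 0.21 (SE 0.13, adjusted p = 0.477). MT1M (0.5 to 11.2), the brain form MT3 (2.1 to 30) and the squamous epithelial form MT4 (1.5 to 27.1) were below the filter.

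Other genes of metal handling were not called in the comparison of EGF with serum. MTF1, the zinc sensor that drives metallothionein transcription, read 50.2 to 97.1 over the 13 arrays, with EGF minus serum at 0.10 in the late pairs (SE 0.20, limma adjusted p = 0.819). SLC30A1, the zinc exporter that is another MTF1 target, read 2204.4 unstimulated, 2258.5, 2497 and 2072.4 late in EGF and 2685.9, 2894.4 and 2143.8 late in serum. It was above EGF at 120 and 240 min of serum and within a smaller distance of it at 480 min (late EGF minus serum -0.08, SE 0.11, adjusted p = 0.709). Of 20 tested genes of a zinc and copper handling list, limma called 0 in the late pairs and 0 in late minus early of serum, with medians of -0.07 and -0.17, beside 0.681% and 1.03% of all tested probe sets. An unadjusted p under 0.05 was reached by 1 and 2 of the 20, beside 18.4% and 19.6% of all tested. The 2 with the largest late difference were the copper importer SLC31A1 (0.44, SE 0.19, adjusted p = 0.278) and the zinc importer SLC39A14 (-0.35, SE 0.10, adjusted p = 0.151).

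Genes of the metal and oxidant stress response included 1 call, in the other direction. In the late pairs 1 of 13 tested was called higher in EGF and 0 lower, with a median of 0.13, beside 0.298% of all tested called higher and 0.383% lower. It was SLC7A11, the cystine importer that feeds glutathione synthesis (1.36, SE 0.18, 2.57-fold, limma adjusted p = 0.0393). SLC7A11 read 921.9, 1413.5 and 1131.8 late in EGF against 492.4, 383.6 and 454.4 late in serum, with 762.3 unstimulated. HMOX1, the haem oxygenase induced by metals and oxidants, was below the filter at 1.9 to 13.3.

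Of 16 tested glucocorticoid targets, limma called 7 lower in EGF and 0 higher in the late pairs (median -1.15), beside 0.383% of all tested called lower and 0.298% higher. The list was drawn up with results on these arrays known, so its direction is no independent evidence. The 7 were RGS2 (-3.12), ANGPTL4 (-2.90), ZBTB16 (-2.87), DUSP1 (-2.26), CDKN1C (-2.24), GADD45B (-1.99) and TSC22D3 (-1.44). Late minus early in EGF was below 0 for 15 of the 16, with a median of -0.91. Limma called 2 of them lower and 0 higher there, beside 0.0937% of all tested called in either direction. In serum it was below 0 for 10 of the 16, with a median of -0.22. The medians of the metallothionein probe sets were 0.00 in EGF and 0.41 in serum. TSC22D3, the glucocorticoid-induced leucine zipper, read 184.9 unstimulated, 235.8, 252.5 and 284 early in serum and 199.5, 134.7 and 148.4 late, and 148.4 at 20 min against 46.2 at 480 min of EGF (late minus early in EGF -0.96, SE 0.21, adjusted p = 0.122). FKBP5, a glucocorticoid-induced chaperone of the receptor, read 193.5 to 246.5 over the serum arrays and 65.9 at 480 min of EGF against 193.7 unstimulated (late EGF minus serum -0.97, SE 0.22, adjusted p = 0.112). ANGPTL4, a lipase inhibitor, read 1555, 2461.7 and 1800.8 late in serum against 305.5 unstimulated and 203.8 to 302.2 late in EGF. It was the 1 listed gene called higher in late minus early of serum (2.08, SE 0.23, adjusted p = 0.0067), where the kinase SGK1 was the 1 called lower (-1.27, SE 0.22, adjusted p = 0.0331).

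The genes most like the metallothioneins were sought with the mean of the 9 centred probe sets over the 13 arrays. That mean stood at 0.23, 0.31 and 0.56 above the unstimulated array at 120, 240 and 480 min of serum and between -0.10 and 0.04 on the EGF arrays. The highest Pearson r were those of UGP2, which makes UDP-glucose (0.94), the histone chaperone NAP1L1 (0.92) and the keratin KRT10 (0.91). They were followed by TMEM208 (0.90), the surface protein CD24 (0.90), PDCD11 (0.89), the calcium-binding S100P (0.89) and the RNA polymerase I subunit POLR1G (0.89). These values are descriptions over arrays that share scaling and RNA. The probe sets read for NAP1L1, KRT10 and CD24 also carried the _x_at mark. CD24 read 3824.2 unstimulated, 3111 at 480 min of EGF and 6943.1 at 480 min of serum. The most opposite were the ubiquitin ligase PJA2 (-0.98), SREBF1, a driver of lipid synthesis (-0.94), and PGM1 (-0.94). SREBF1 read 398.7 unstimulated, 424.3 at 480 min of EGF and 94.6 at 480 min of serum.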

How the data were processed

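Total RNA of MCF10A cells was measured on 13 Affymetrix arrays, 1 per stimulus and time. Values were deposited as MAS5 signals, an intensity on a linear scale, per the labels, with no software version in the sources used here. The deposited arrays had been scaled alike: the mean after trimming 2% at each end was 150.04 to 150.05. Detection calls and probe-level data were not used here.

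Signals were transformed as log2 of signal plus 6 and quantile normalised (limma 3.58.1, R 4.3.3). The platform annotation named 1 gene for 19064 of the 22277 probe sets. Those with a mean at or above the 40th percentile of probe set means were tested (11745, of 7731 genes). Linear models (lmFit, eBayes) were fitted to all of them, with the Benjamini-Hochberg adjustment inside each comparison. EGF and serum were compared over all pairs, and within early and late pairs and their interaction, with time as a block. Late minus early, and each phase against the unstimulated array, used 5 groups of arrays. The procedure was tested on simulated data.

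Named were all probe sets of the members and of other metallothioneins, the 8 genes most and 3 least correlated with their mean, list genes called in EGF minus serum over all or the late pairs (otherwise the 2 largest late differences), and MTF1, SLC30A1, HMOX1, TSC22D3 and FKBP5. SLC31A1 and SLC39A14 come from the last part of the list rule. SGK1, COL1A1, CD14 and DCN were named after their values were seen. Lists took the brightest probe set of each gene. Members and lists were chosen with earlier results of these data known. Promoters came from RefSeq. Alternatives were other offsets, no quantile normalisation, no filter or a stricter one, 1 probe set a gene, a variance trend, other handling of time and arrays left out. Figures were made with Python 3.11.15 and matplotlib 3.10.9.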

Additional observations from a re-analysis of the deposited data

Results flagged for a closer look

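MT1X 204326_x_at had all 3 late serum arrays above the unstimulated array and all 3 late EGF arrays below it, a difference of -0.59 between the EGF and serum means. This order was seen in 2.16% of all tested probe sets, and its reverse in 2.25%. Neither side passed the threshold against the single unstimulated array: late EGF was at -0.12 (SE 0.15, limma adjusted p = 0.81) and late serum at 0.47 (SE 0.15, adjusted p = 0.203). The difference between phases, tested as an interaction, did not pass it either (adjusted p = 0.372).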

How the results depend on the processing

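The size of the late serum difference was steadier than its calls, in part by the way it is computed. Late minus early in serum stayed above 0 for all 9 tested probe sets in each of the 195 combinations of probe set and alternative run, and for the 6 probe sets set apart by late serum it ran from 0.26 to 0.67. Many of these runs could hardly move the size. Another filter or a variance trend leaves the size of a probe set as it was. Leaving out an EGF array or the unstimulated array acts only through normalisation, with medians of 0.40 to 0.41 beside 0.41. Without the serum array of 480 min the median was 0.28. Late EGF minus serum stayed below 0 in 182 of 186 combinations over all 9, and for those 6 in 123 of 123 (-0.90 to -0.22). Those 6 were picked because late serum lay above every other array, so the sign of both differences was largely given beforehand. The 4 changes of sign in late EGF minus serum were of MT1H and MT1X 208581_x_at. With time as a block, leaving out 1 array of a pair also removes what its partner tells. Without the EGF or the serum array of 480 min, for example, the median was -0.32 in both runs. These combinations are therefore not independent counts, and a change of sign can be counted in both runs of a pair. The number of member probe sets called in late minus early of serum, 1, became 0 with offset 0, without quantile normalisation, without the filter, with 1 probe set a gene and without both 20 min arrays. It became 3 with offset 24 or without both 120 min arrays, 4 with the 60th percentile filter and 5 with the variance trend. Leaving out each array in turn gave 0 to 3, and the call of MT1F 213629_x_at was kept without the unstimulated array or serum at 120 min and lost without any of the other 11. In late EGF minus serum the count of 0 became 2 with offset 24, 3 with the 60th percentile filter and 6 with the variance trend. Over all pairs it became 1 with the 60th percentile filter or log2 time as a linear term and 2 with the variance trend. No other member count changed. Over all tested probe sets, the 121 calls of late minus early in serum became 259 with offset 24, 13 without the filter, 383 with the stricter filter, 561 with the variance trend, 11 without both 20 min arrays and 215 without both 120 min arrays, and 5 to 229 with single arrays left out. The 80 of late EGF minus serum became 45 with offset 0, 203 with offset 24, 1 without the filter, 407 with the stricter filter, 768 with the variance trend, 47 and 0 without those pairs, and 0 to 47 with single arrays left out. Calls over all pairs (7) ran from 1 to 693, in late minus early of EGF (11) from 0 to 101, in the early pairs (0) up to 250, in the interaction (1) up to 90 and in late serum minus unstimulated (21) from 5 to 164. Without quantile normalisation late minus early in serum for MT2A was 0.28 in place of 0.08, late serum minus unstimulated 0.21 in place of -0.01, late minus early in EGF -0.13 in place of 0.01, late EGF minus serum -0.16 in place of -0.04 and the interaction -0.42 in place of -0.07. No paired analysis by replicate number was possible because the labels give no replicate numbers, and pairs were formed by time. Without the time block the count over all pairs stayed 0.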
